A study of Drosophila melanogaster with 12 samples.

Results

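The trypsin genes of the gut were followed in whole Drosophila melanogaster larvae through 9 members: lambdaTry, kappaTry, zetaTry, etaTry, thetaTry, alphaTry, epsilonTry, betaTry and iotaTry. They were chosen by gene symbol, after the array's gene annotation had been updated to current names. Each of the 9 had exactly 1 probe set that the annotation ties to that gene alone, of 11982 genes with such a probe set. All 9 were among the 8387 genes that passed a filter on low mean intensity over all arrays. Of these, lambdaTry and kappaTry passed because of their level in feeding larvae, since in a filter over the arrays of wandering larvae alone both were left out.

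The larvae were males of the wild-type strain Canton-S, profiled on 12 Affymetrix arrays with 3 biological replicates in each of 4 groups. Wandering larvae of the last instar (L3) had fed since hatching on high sugar food (1 M sucrose) or on control food (0.15 M sucrose), and they had left the food with partly cleared guts when they were collected. Feeding larvae of the same instar (mid-L3) had been reared on control food until early in the instar, and were collected after 12 h on fresh high sugar food or fresh control food. All food was a semi-defined diet with sucrose in place of glucose, and the number of larvae per sample is not given in the sources used here. A diet comparison in wandering larvae is thus one of lifelong feeding, and in mid-L3 larvae one of 12 h, so stage and time on the food cannot be told apart where the diet effects are compared.

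Trypsins are serine peptidases that cut proteins after lysine or arginine. Midgut cells make them as inactive precursors and release them into the gut lumen, where they digest the protein of the food. Wandering larvae stop feeding, and the larval midgut is later replaced during metamorphosis. In Drosophila, dietary sugar is known to lower transcripts of gut carbohydrases through the transcription factor Sugarbabe and the activin-type ligand Dawdle.

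All 9 genes lie on chromosome arm 2R. In the annotation of assembly Release 6 plus ISO1 MT, 14 protein-coding genes follow each other from lambdaTry to iotaTry. The first 8 are all members, in the order lambdaTry, kappaTry, zetaTry, etaTry, thetaTry, alphaTry, epsilonTry and betaTry. After betaTry come gammaTry, CG30031, CG30025 and deltaTry, known as near-identical trypsin copies that were not analysed here, then CG13202 and last iotaTry. Probe sequences were not used here, so hybridization of a close copy to a member's probe set was not tested.

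Intensities are the authors' values on a linear scale, where the median of an array lay between 62.2 and 82.4 and the highest value of the whole table was 15822. Probe sets differ in how they bind, so the level of one gene is not set against that of another. Within their arrays, the betaTry and epsilonTry probe sets lay between percentiles 97.4 and 99.4 in all 12 arrays. By contrast, lambdaTry lay at percentiles 40.6 to 49.8 in wandering larvae fed high sugar food and 15.2 to 35.4 in those on control food, but at 93.3 to 93.9 in mid-L3 larvae. Of the tissue markers on the lists, 9 of 12 for midgut, 3 of 6 for fat body, 6 of 6 for salivary gland and 2 of 5 for muscle had a named probe set. None was at the lowest value of the table, but the glue gene Sgs1 of the salivary gland was at 2.73 to 15.5 in mid-L3 larvae fed high sugar food and at 2.64 to 8.61 in those fed control food, far below the array medians. In such RNA, fewer midgut cells and less trypsin RNA per cell cannot be told apart.

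**Figure D1:**
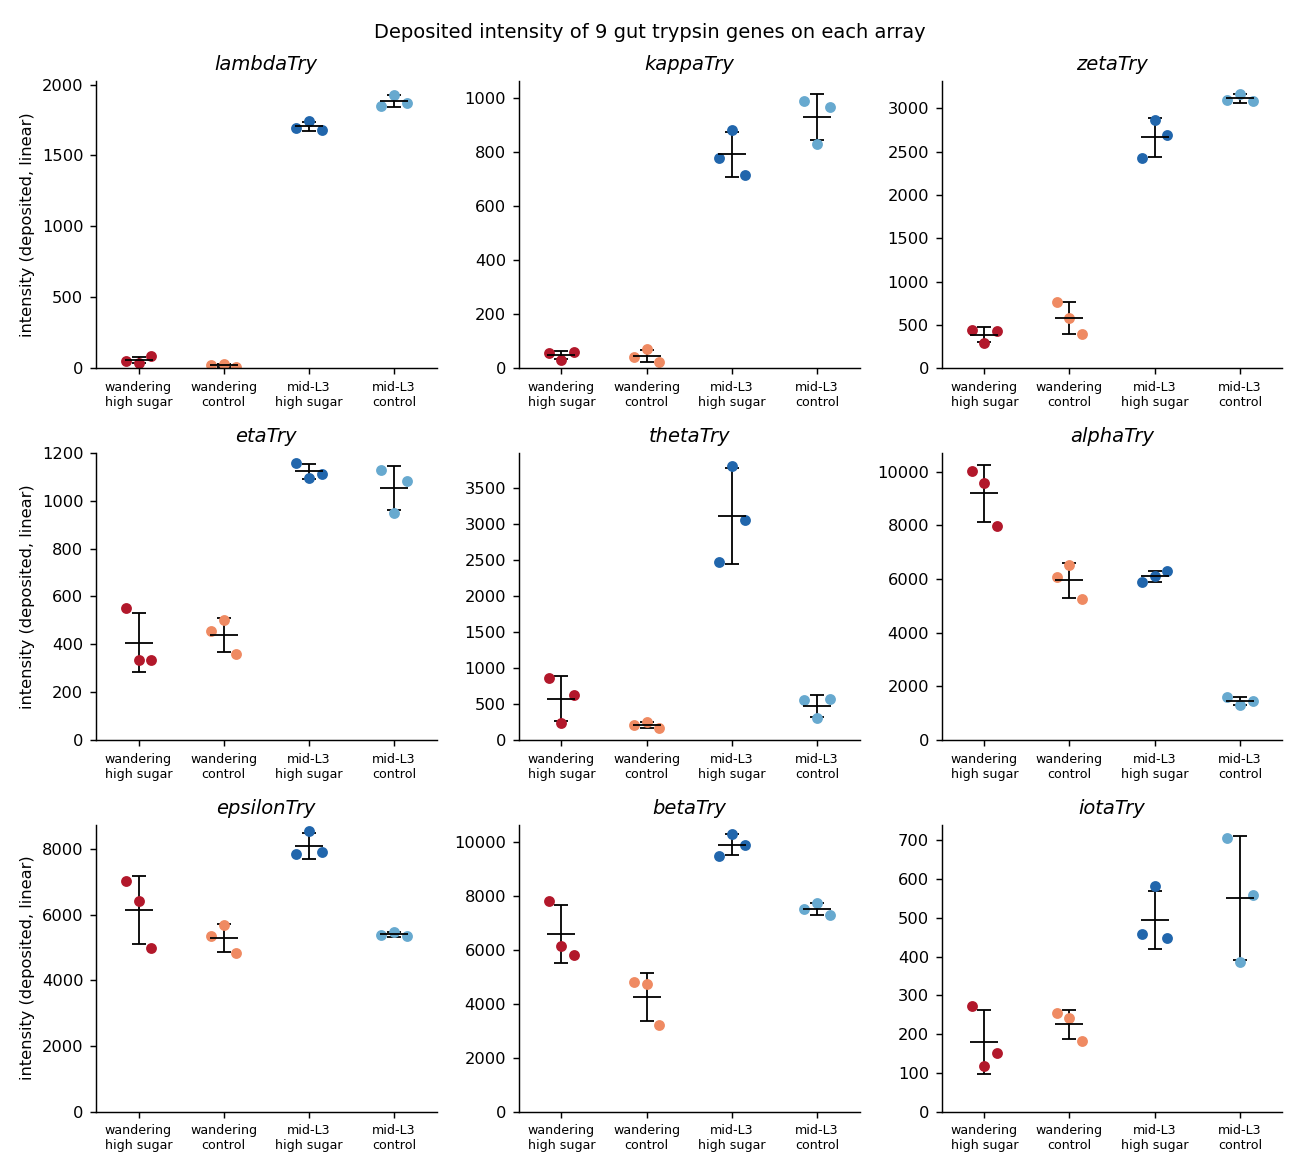
Deposited intensity (linear scale, y axis from 0, own range in each panel) of the 9 trypsin genes, in their order along the chromosome arm, on each of the 12 arrays, by group. Points are arrays and bars are the mean ± SD (n = 3). lambdaTry, kappaTry and zetaTry are low in wandering larvae on both foods, whereas alphaTry is lowest in mid-L3 larvae on control food.

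The comparison of 12 h on high sugar food with 12 h on control food in feeding mid-L3 larvae asks how trypsin transcripts respond to sugar over a short time. A run of 4 neighbouring genes, thetaTry, alphaTry, epsilonTry and betaTry, rose after 12 h of high sugar food. The increase was 6.53-fold in mean intensity for thetaTry and 4.18-fold for alphaTry, but 1.5-fold for epsilonTry and 1.32-fold for betaTry. None of the other 5 members passed the test in either direction. Among all genes tested, 7.52% were higher and 6.52% lower at the same threshold, limma's Benjamini-Hochberg adjusted p of 0.05, against 4 and 0 of the 9 trypsins. With the values as deposited or with arrays centered on their medians, 3 trypsins were higher, as betaTry did not pass. At an unadjusted p under 0.05, limma found 4 trypsins higher and 0 lower, beside 1267 and 1041 of the 8387 genes tested. The median log2 change was 0.17 for the 9 genes and 0.01 for all genes tested.

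On high sugar food, the 3 mid-L3 arrays had 2466, 3801 and 3057 for thetaTry, against 551, 301 and 574 on control food. The groups did not overlap, and the lowest high sugar array was far above the highest control array. In the fit, whose log2 values were taken after adding 12.7 to each intensity, the thetaTry change was 2.54 (SE 0.38, adjusted p = 6.92e-04). That change was larger in size than those of 99.7% of genes tested.

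For alphaTry, the intensities of mid-L3 larvae were 5908, 6099 and 6303 on high sugar food and 1603, 1308 and 1465 on control food. All arrays within a diet lay close together, and the groups were well apart. Its log2 change of 1.93 (SE 0.08, adjusted p = 1.22e-08) had the smallest error of the members. It was also the member with the smallest adjusted p in this comparison.

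Mid-L3 larvae on high sugar food had 7842, 8560 and 7918 for epsilonTry, against 5393, 5490 and 5342 on control food. For betaTry the values were 9512, 10300 and 9917 on high sugar food and 7523, 7742 and 7305 on control food. Both genes were already among the most intense probe sets on control food, and in both the groups did not overlap. The log2 change was 0.61 for epsilonTry (SE 0.09, adjusted p = 5.24e-04) and 0.49 for betaTry (SE 0.11, adjusted p = 0.00984). The call of betaTry was lost with the values as deposited (adjusted p = 0.0744) and with arrays centered on their medians (adjusted p = 0.0962), and its adjusted p ran from 2.59e-04 to 0.0962 over all alternatives.

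Of the 5 members that did not pass, 4 precede this run on the arm and iotaTry lies further on, beyond the 4 trypsin copies not analysed here. lambdaTry had 1694, 1742 and 1681 on high sugar food and 1852, 1929 and 1873 on control food in mid-L3 larvae. These arrays did not overlap, yet the difference was small, with a log2 change of -0.10 (95% interval -0.54 to 0.35, adjusted p = 0.812). The log2 changes of the rest were -0.14 for kappaTry (interval -0.62 to 0.33), -0.17 for zetaTry (-0.59 to 0.26), 0.17 for etaTry (-0.23 to 0.57) and -0.07 for iotaTry (-0.63 to 0.49). Changes within these intervals are compatible with the 3 arrays per group, so that these genes are not shown to be unaffected.

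Some midgut markers were also higher in this comparison. Of 12 genes on the list, 9 were tested and 2 rose, the midgut transcription factor gene nub by 0.74 (adjusted p = 0.00262) and the gut-specific membrane protein gene mex1 by 0.40 (adjusted p = 0.0179). The summed intensity of the 9 in mid-L3 larvae was 8362 to 8771 on high sugar food and 7106 to 7562 on control food. Its part in the trypsin result was not tested. None of 6 salivary gland and 2 muscle markers passed limma's adjusted threshold (2 and 0 at an unadjusted p under 0.05). Of 3 fat body markers, Fbp2 was lower (-1.04, adjusted p = 0.038), and all 3 were lower at an unadjusted p under 0.05. Their summed intensity was 12655 to 18405 on high sugar food and 18355 to 21578 on control food, and its part in the trypsin result was not tested.

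**Figure D2:**
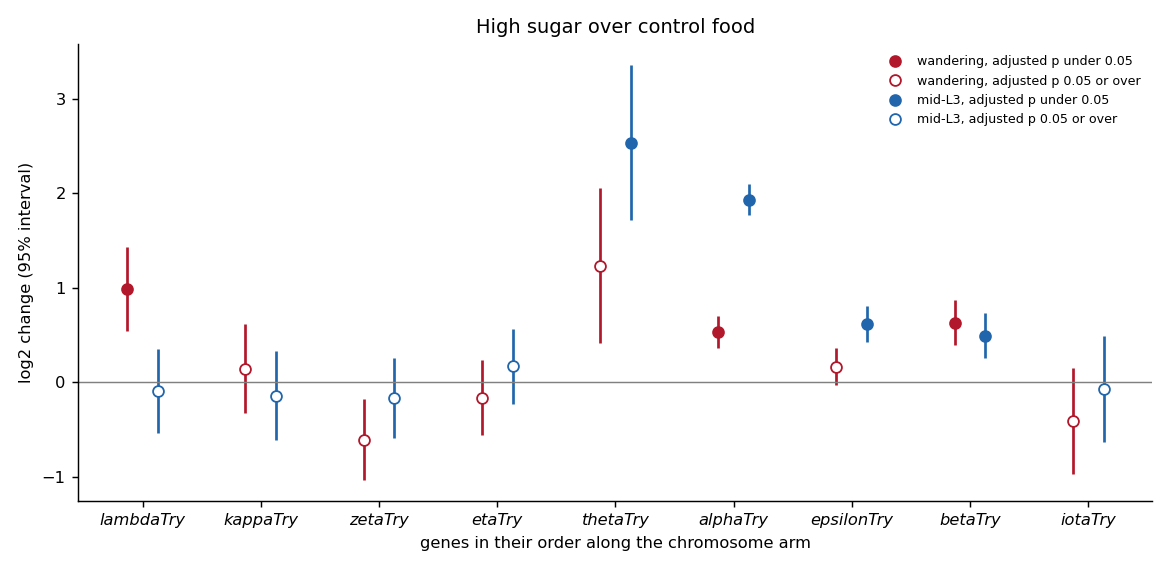
Log2 change of the 9 trypsin genes on high sugar over control food, for wandering larvae beside mid-L3 larvae, with 95% intervals from the limma fit, for genes in their order along the chromosome arm. Filled points passed the adjusted p of 0.05. The 4 mid-L3 increases stand side by side from thetaTry to betaTry, at 2.54, 1.93, 0.61 and 0.49. That of betaTry did not pass with the values as deposited or with arrays centered on their medians.

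In wandering larvae, high sugar food since hatching was compared with control food since hatching. Here alphaTry and betaTry were higher on high sugar food, by 1.54-fold and 1.55-fold in mean intensity. lambdaTry was also called higher, at intensities so low that its fold depends on the added constant. No trypsin was lower at the adjusted threshold, although zetaTry came near it in that direction. Of all genes tested, 3.57% were higher and 2.80% lower, against 3 and 0 of the 9 trypsins. At an unadjusted p under 0.05, limma placed 4 trypsins on the higher side and 1, zetaTry, on the lower. Of the 8387 genes tested, 1045 were higher and 854 lower at that p. The median log2 change was 0.17 over the 9 genes and -0.02 over all genes tested.

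The 3 arrays of wandering larvae had 10013, 9583 and 7986 for alphaTry on high sugar food, against 6085, 6527 and 5251 on control food. For betaTry they had 7815, 6156 and 5817 on high sugar food and 4808, 4726 and 3221 on control food. Neither gene overlapped between the foods, and both were among the most intense probe sets of these arrays even though the larvae had left the food. In the limma fit the log2 change was 0.53 for alphaTry (SE 0.08, adjusted p = 0.00123) and 0.63 for betaTry (SE 0.11, adjusted p = 0.00415).

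lambdaTry reached 52.5, 38.7 and 82.5 in wandering larvae on high sugar food and 23.9, 26.4 and 9.18 on control food. All these values are low, with lambdaTry in the lower part of every array's distribution, but the groups did not overlap. The log2 change was 0.99 (SE 0.21, adjusted p = 0.013), and it lay between 0.47 with a constant 5 times larger and 1.38 with a constant of 1. Without wandering high sugar array 3 the adjusted p was 0.0558, and where a value was given the adjusted p ran from 4.39e-04 to 0.0558. With the wandering arrays fitted alone, lambdaTry was left out by the filter and had no test.

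thetaTry, the member with the highest fold change in feeding larvae, had 854, 237 and 617 in wandering larvae on high sugar food and 209, 255 and 172 on control food. High sugar array 2 lay inside the range of the control arrays, while the other two were well above it. The log2 change of 1.23 (SE 0.38, interval 0.41 to 2.06) did not pass, with an adjusted p of 0.0771. Without array 2 it was 1.78 with an adjusted p of 0.00139, without array 1 it was 0.81 with an adjusted p of 0.237, and it passed with array weights (2.02, adjusted p = 2.23e-04). Over all alternatives the adjusted p ran from 2.23e-04 to 0.237.

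The values of zetaTry in wandering larvae were 445, 289 and 423 on high sugar food and 758, 581 and 396 on control food. They overlapped only through control array 3, the lowest of its group. Its log2 change of -0.61 (SE 0.20) had an adjusted p of 0.0917, and -0.85 with an adjusted p of 0.0166 when control array 3 was left out. Without control array 1 it was -0.38 with an adjusted p of 0.277, and over all alternatives it lay between -0.85 and -0.24. epsilonTry, with a log2 change of 0.17 (adjusted p = 0.291), passed without high sugar array 3 (0.29, adjusted p = 0.0278) and with array weights (adjusted p = 0.0105). kappaTry, etaTry and iotaTry had log2 changes of 0.14, -0.17 and -0.41, with adjusted p values of 0.745, 0.635 and 0.375.

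Some of this spread was shared by the trypsins of an array. In wandering control array 3 all 9 genes lay below their group mean, by a median of 0.26 on the log2 scale, and in wandering control array 2 all 9 lay above it. Of all genes tested, 54.6% lay above their group mean in control array 3 and 49% in control array 2. Among wandering larvae on high sugar food, 8 of 9 were below the mean in array 2 (median deviation -0.33) and 8 of 9 above it in array 1 (median deviation 0.19). There, 47.9% of all genes tested lay above the mean in array 2 and 48.8% in array 1. The carbohydrase genes of the gut had median deviations of the same sign, -0.29 in high sugar array 2 and -0.21 in control array 3. Jonah peptidase genes of the gut had the same sign but smaller medians, -0.045 and -0.087. Midgut markers did not, with 0.07 and 0.09 on the same arrays. What sets these arrays apart was not tested.

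In wandering larvae 0 of 9 midgut markers passed limma's adjusted threshold for diet, and 1, Ptx1, was lower at an unadjusted p under 0.05. Their summed intensity was 5938 to 6552 on high sugar food and 6197 to 6694 on control food. No salivary gland, fat body or muscle marker passed, at the adjusted or the unadjusted p of 0.05.

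The difference of both diet effects, wandering minus mid-L3, was tested for each gene as an interaction. Over all genes, 3.79% were higher and 3.97% lower in this sense, and of the 9 trypsins 1 was higher and 2 were lower. alphaTry had a smaller log2 change in wandering larvae, with a difference of -1.40 (SE 0.11, adjusted p = 1.03e-05). This followed from the values above, a log2 change of 0.53 in the wandering stage and 1.93 at mid-L3. Both changes began from unlike levels, since its control mean was 5954 in wandering and 1459 in mid-L3 larvae. Whether the arrays register a change less fully at high intensity was not tested. epsilonTry also had a smaller response in wandering larvae (-0.45, SE 0.12, adjusted p = 0.0471), and lambdaTry a larger one (1.09, SE 0.29, adjusted p = 0.0384).

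Only the alphaTry difference passed under every alternative tried, with an adjusted p of at most 8.04e-05. The adjusted p of epsilonTry ran from 0.0227 to 0.181 and that of lambdaTry from 0.00177 to 0.0872, and both calls were lost when wandering control array 3 or any 1 of the 6 mid-L3 arrays was left out. lambdaTry was also lost with the replicate number as a block (adjusted p = 0.0699), although a pairing was inferred for the control groups alone. It was lost with a constant of 1 too (adjusted p = 0.0568). Its value lay between 0.56 and 1.48 over the alternatives, and it rests on wandering intensities that are low, as described above. For thetaTry the difference was -1.30 (SE 0.54, adjusted p = 0.173), and -1.75 with an adjusted p of 0.0462 without wandering high sugar array 1. Without wandering high sugar array 2 it was -0.77, and over all alternatives it lay between -1.75 and -0.36, with adjusted p values of 0.0462 to 0.488. betaTry, called at both stages, had a difference of 0.14 with an interval of -0.20 to 0.47.

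Most trypsin transcripts were lower in wandering than in feeding larvae. On control food, 7 trypsins were lower in wandering larvae than in mid-L3 larvae, alphaTry was higher, and epsilonTry passed as higher with a sign that turned with the scaling. The decline was steepest at the start of the cluster, with fitted folds of 55.6 for lambdaTry, 17.9 for kappaTry and 5.40 for zetaTry on the scale of log2 intensity plus 12.7. lambdaTry and kappaTry are dim in wandering larvae, so their folds depend on that constant, and both had passed the filter through their mid-L3 level. alphaTry went the other way and was 4.08-fold higher in mean intensity. The stages differed so widely that 39.4% of all genes tested were higher and 39.8% lower, against 2 and 7 of the 9 trypsins, or 1 and 8 with arrays centered on their medians, when epsilonTry was called lower. The median log2 change was -1.34 over the 9 genes and -0.01 over all genes tested.

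On control food, kappaTry had 41.0, 69.4 and 22.9 in wandering larvae and 987, 830 and 964 in mid-L3 larvae. zetaTry, with its wandering values above, had 3092, 3172 and 3083 in mid-L3 larvae. The stages did not overlap for kappaTry, lambdaTry or zetaTry. Log2 changes in the limma fit were -5.80 for lambdaTry (SE 0.21, adjusted p = 8.09e-11), -4.17 for kappaTry (SE 0.22, adjusted p = 2e-09) and -2.43 for zetaTry (SE 0.20, adjusted p = 1.16e-07). Over the alternatives, which include a smaller and a larger constant, the change ran from -6.48 to -4.47 for lambdaTry and from -4.54 to -3.25 for kappaTry.

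A smaller decline was seen for etaTry, thetaTry and iotaTry. etaTry had 457, 501 and 360 in wandering larvae and 1129, 949 and 1084 in mid-L3 larvae on control food. iotaTry had 254, 242 and 184 in wandering larvae and 705, 386 and 560 in mid-L3 larvae. Neither gene overlapped between the stages. The log2 changes were -1.34 for etaTry (adjusted p = 1.73e-05), -1.42 for iotaTry (adjusted p = 2.27e-04) and -1.31 for thetaTry (adjusted p = 0.00658).

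Further along the cluster the pattern changed. alphaTry, with the values given above, rose by 2.23 on the log2 scale in wandering larvae on control food (SE 0.08, adjusted p = 7.38e-11). betaTry was lower, by a log2 change of -0.47 (SE 0.11, adjusted p = 0.00156). Its change was -0.84 with the values as deposited and -1.14 with arrays centered on their medians. For epsilonTry the direction was set by the scaling: 0.37 after quantile normalization (adjusted p = 0.00182), -0.03 with the values as deposited (adjusted p = 0.782) and -0.33 with arrays centered on their medians (adjusted p = 0.0121). Its deposited mean was 5297 in wandering and 5408 in mid-L3 larvae, a ratio of 0.98, so no direction is given for it. The median of all genes itself shifted, being -0.01, 0.18 and -0.12 under the same 3 scalings. The signs of the other 8 genes did not depend on the scaling.

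**Figure D3:**
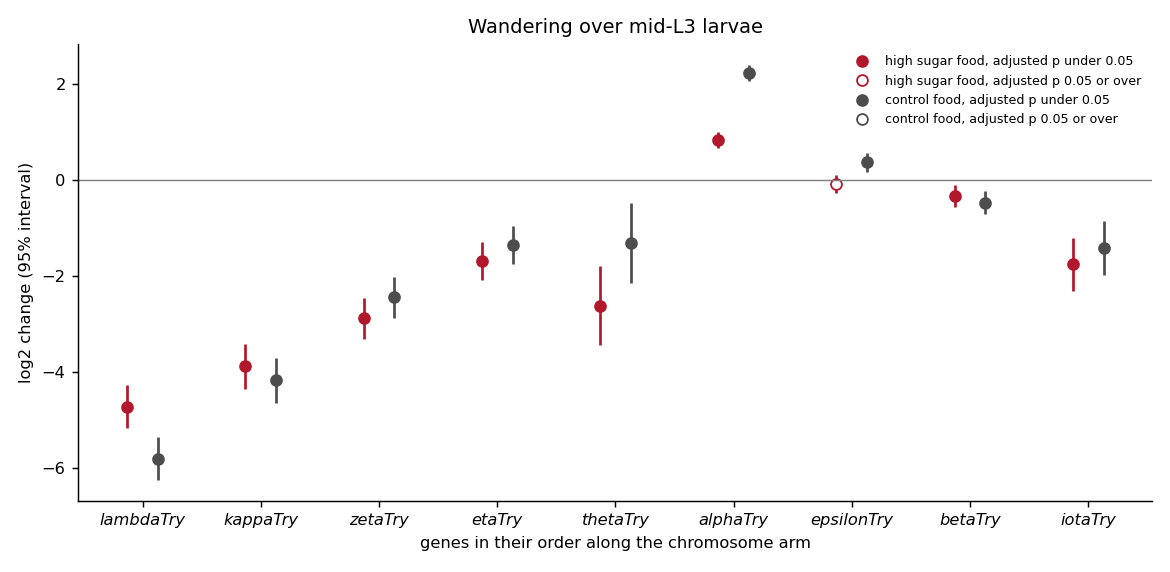
Log2 change of the 9 trypsin genes in wandering over mid-L3 larvae, on high sugar food and on control food, with 95% intervals from the limma fit on quantile-normalized values, for genes in their order along the chromosome arm. Filled points passed the adjusted p of 0.05. The change on control food is -5.80 at lambdaTry, -1.31 at thetaTry and 2.23 at alphaTry. The sign of epsilonTry on control food turns with the scaling.

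On high sugar food, too, most members were lower in wandering larvae. Here the wandering larvae had fed on high sugar food since hatching and the mid-L3 larvae for 12 h. Stage and time on the food thus cannot be told apart in this comparison. In wandering larvae on high sugar food, 1 trypsin was higher and 7 were lower than in mid-L3 larvae, beside 38.2% and 40.9% of all genes tested. The log2 changes were -4.71 for lambdaTry, -3.88 for kappaTry, -2.88 for zetaTry, -2.61 for thetaTry, -1.75 for iotaTry and -1.68 for etaTry, with adjusted p values of at most 3.67e-05. kappaTry, for example, had 54.2, 31.9 and 60.7 in wandering larvae and 775, 879 and 716 in mid-L3 larvae on this food, with no overlap.

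alphaTry was higher in wandering larvae on high sugar food too, by 0.83 (SE 0.08, adjusted p = 5.24e-07), a change that lay between 0.30 and 0.90 over the alternatives. betaTry was lower (-0.33, adjusted p = 0.0139), and this call was lost without wandering high sugar array 2 (adjusted p = 0.0508) or array 3 (adjusted p = 0.0607) and with array weights (adjusted p = 0.068). The betaTry decline was larger with the values as deposited (-0.60, adjusted p = 0.00133) and with arrays centered on their medians (-0.88, adjusted p = 5.05e-05). epsilonTry did not pass (-0.08, adjusted p = 0.43) but was lower with the values as deposited (-0.41, adjusted p = 0.00265) and with arrays centered on their medians (-0.69, adjusted p = 4.88e-05).

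**Figure D4:**
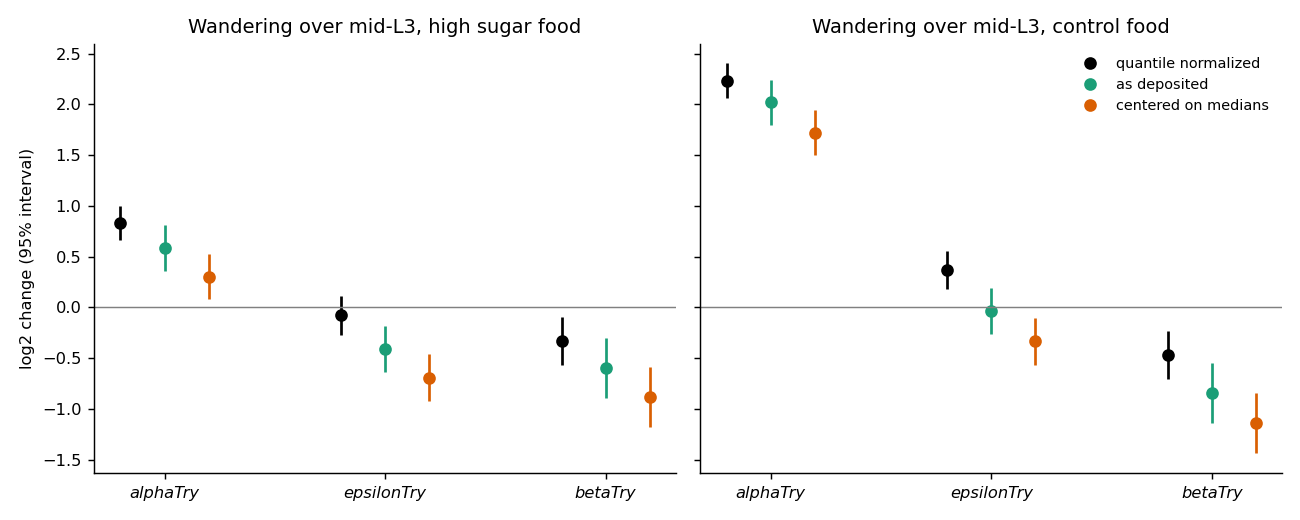
Log2 change in wandering over mid-L3 larvae for alphaTry, epsilonTry and betaTry under 3 scalings of the arrays, with 95% intervals, on high sugar food and on control food. On control food epsilonTry is at 0.37 or -0.33 depending on the scaling, whereas alphaTry stays above 0 and betaTry below it on both foods.

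Transcripts of tissue markers shifted widely between the stages. Such shifts do not tell a change in the amount of a tissue from one in RNA of these genes per cell. Of 9 midgut markers tested, 6 were lower and 1 was higher in wandering larvae on control food, and 7 were lower and 1 higher on high sugar food. GATAe, a transcription factor gene of the gut endoderm, had a log2 change of -1.58 on control food and -1.75 on high sugar food. Summed midgut marker intensity was 6197 to 6694 in wandering and 7106 to 7562 in mid-L3 larvae of the control diet. On high sugar food the sums were 5938 to 6552 and 8362 to 8771. The brightest probe sets weigh most in these sums, and the brightest, that of Ssk, was the marker called higher. The 6 salivary glue genes summed to 53029 to 55110 in wandering and to 141 to 898 in mid-L3 larvae of the control diet, and all 6 were higher in wandering larvae on both foods. Of 3 fat body markers, 2 were higher in wandering larvae on control food and 3 on high sugar food, Fbp1 by 7.12 and 7.36 on the log2 scale. Their sums on control food were 28722 to 32188 in wandering and 18355 to 21578 in mid-L3 larvae. The 2 muscle markers tested were lower on both foods. The part of these shifts in the trypsin result was not tested.

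The order of the 4 groups by mean intensity varied among the members. For lambdaTry it was mid-L3 control, mid-L3 high sugar, wandering high sugar and wandering control, and no neighbours in that order overlapped. kappaTry had the same order, but both foods overlapped within each stage. For zetaTry, etaTry and iotaTry the 2 mid-L3 groups stood above the 2 wandering groups without overlap between the stages.

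alphaTry was highest in wandering larvae on high sugar food (9194 ± 1068, SD, n = 3) and lowest in mid-L3 larvae on control food (1459 ± 148), while the groups between, wandering control and mid-L3 high sugar, overlapped. thetaTry was highest in the mid-L3 high sugar group (3108 ± 669) and lowest in wandering larvae on control food (212 ± 41.8). Its wandering high sugar group (569 ± 311) overlapped its mid-L3 control group (476 ± 151). epsilonTry varied least, with 1.53-fold between its highest and lowest group mean, and betaTry varied by 2.33-fold. The highest and lowest group means were 14.7-fold apart for thetaTry and 6.30-fold apart for alphaTry.

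Correlation with other genes over the 12 arrays describes how alike these patterns are, with points that share the 4 groups. lambdaTry was most like Agpat4, an acyltransferase gene (Pearson r = 0.997), and CG4752 (0.997), and among the trypsins most like kappaTry (0.992). Of all genes tested, 46 were more like lambdaTry than kappaTry was. kappaTry was most like the esterase gene alpha-Est7 (0.997) and CG10086 (0.996). zetaTry was most like Tep3, a thioester protein gene (0.995 on 12 arrays), and CG14958 (0.994). etaTry was most like the maltase gene Mal-A6 (0.991) and CG4053 (0.989), and iotaTry most like CG18585 (0.985) and etaTry (0.970).

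The members called higher on high sugar food in mid-L3 larvae, thetaTry, alphaTry, epsilonTry and betaTry, had other partners. Their response to the food is itself part of the values correlated here. thetaTry was most like Mal-A7, another maltase gene (r = 0.978), and CG32751 (0.962). alphaTry was most like CG12826 (0.984) and whd (0.980), which encodes a carnitine palmitoyltransferase. epsilonTry was most like daw, the gene of Dawdle (0.931), and Ulp1, a SUMO protease gene (0.920). All these correlations used quantile-normalized values, and other scalings were not tried. Since the sign of epsilonTry between the stages on control food turned with the scaling, its partners may depend on it. betaTry was most like the trypsin-type gene CG17571 (0.955) and CG13315 (0.952). Among the trypsins, thetaTry was closest to betaTry (0.870) and alphaTry to epsilonTry (0.817). Of all genes tested, however, 98 were more like thetaTry than betaTry was, and 386 more like alphaTry than epsilonTry was.

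Other digestive genes were read beside the trypsins from lists chosen with earlier results of these data known. CG17571, a trypsin-type gene outside the run and the only one of 6 such genes that was tested, rose in wandering larvae on high sugar food (1.5, SE 0.27, adjusted p = 0.0051). In mid-L3 larvae it had a log2 change of 0.85 with an adjusted p of 0.0546. Its mean was 2928 ± 692 in wandering larvae on high sugar food and 1221 ± 520 on control food (SD, n = 3 each).

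Jonah genes encode another family of serine peptidases of the gut. Of 13 tested, 1 was higher and 7 were lower on high sugar food in wandering larvae, with a median log2 change of -0.48, against 3 higher and 0 lower of the 9 trypsins. Jon99Ci was at 112 ± 18.4 on high sugar food and 1398 ± 389 on control food (log2 change -3.62, adjusted p = 7.09e-08), whereas Jon99Fi was higher (1.73, adjusted p = 8.68e-05). In mid-L3 larvae 1 Jonah gene, Jon65Ai, was higher (0.39, adjusted p = 0.011) and 0 of 13 were lower, also at limma's unadjusted p of 0.05.

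Among 12 other gut peptidases, 2 were higher and 4 lower on high sugar food in wandering larvae, and 2 higher and 1 lower in mid-L3 larvae. The gene CG18179 was lower at both stages (-2.51 in wandering and -2.49 in mid-L3 larvae). Jon65Aiii stands in this list as well as in the Jonah list.

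Of 11 carbohydrases, 2 were higher and 4 lower in wandering larvae, and 2 higher and 1 lower in mid-L3 larvae. Amyrel had the smallest limma adjusted p of the list in wandering larvae, where it was lower (-4.20, adjusted p = 6.14e-09). It was also lower in mid-L3 larvae (-1.94, adjusted p = 4.78e-06). Mal-A7, the gene closest to thetaTry in pattern, rose by 1.26 in wandering and 2.76 in mid-L3 larvae (adjusted p = 0.00188 and 1.8e-06). Of 5 digestive lipases, 4 were lower in wandering and 1 in mid-L3 larvae, with median log2 changes of -3.09 and -0.23.

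Of 8 genes of sugar sensing and activin signalling, 2 were higher in wandering and 4 in mid-L3 larvae, and none was lower at either stage (1 and 0 at limma's unadjusted p under 0.05). sug, the gene of Sugarbabe, rose by 2.20 in wandering and 2.35 in mid-L3 larvae (adjusted p = 1.08e-04 and 3.53e-05). daw rose in mid-L3 larvae (1.18, adjusted p = 2.22e-05), with 1449 ± 233 on high sugar food and 607 ± 31.8 on control food (SD, n = 3 each). In wandering larvae daw averaged 1235 ± 131 on high sugar food and 1078 ± 48.4 on control food, and it did not pass the test.

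**Figure D5:**
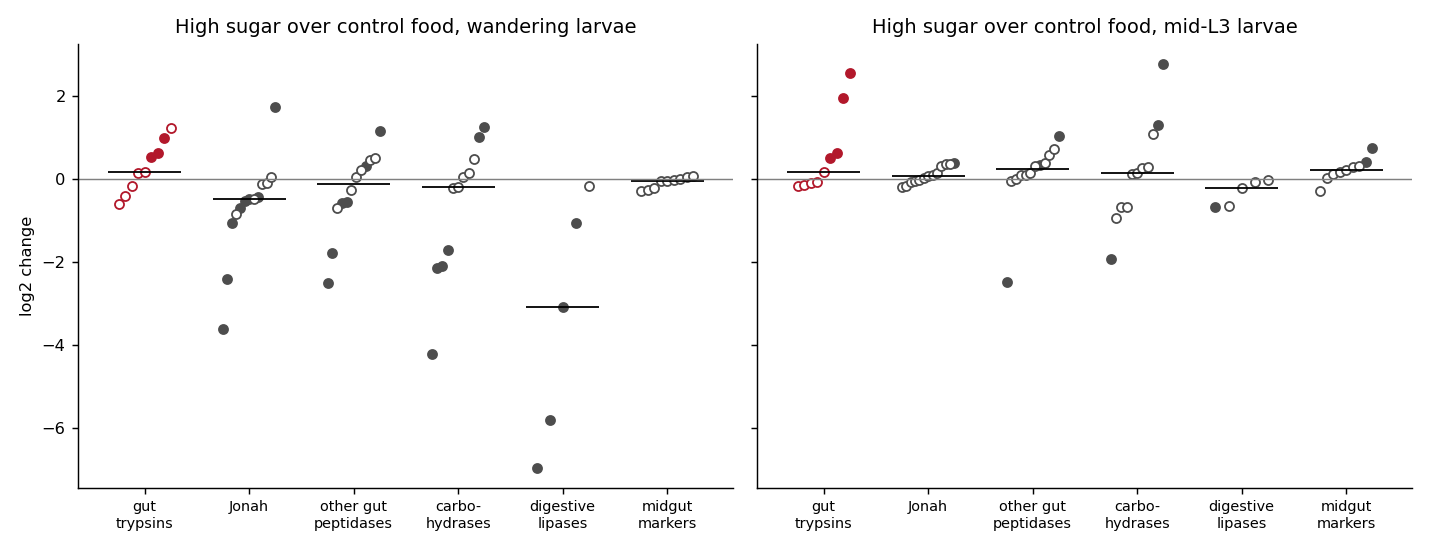
Log2 change on high sugar over control food for each tested gene of the 9 trypsins (red) and of 5 other lists (grey), with wandering larvae left and mid-L3 larvae right. Filled points passed the adjusted p of 0.05 and horizontal bars are list medians. In wandering larvae the filled trypsin points lie above 0, while 7 of 13 Jonah genes and 4 of 5 digestive lipases are filled below 0.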

How the data were processed

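The authors deposited a linear intensity for each probe set on each array. Total RNA was labelled as biotinylated cRNA, per the labels' protocols. The summarizing software and its normalization were not given in the sources used here, and no detection calls were used, so precision rests on the number of arrays. Of 18952 probe sets, 183 array controls were left out, and 13647 were tied to 1 gene and 402 to several. Of those tied to 1 gene, 13544 were matched to a current symbol, whether or not it differed from the platform's. Where a gene had more than 1, its brightest probe set on average was taken.

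Intensities were transformed as log2 after adding 12.7, the 20th percentile of all values, and quantile normalized. Genes whose mean lay below the 30th percentile were dropped. One limma model (version 3.58.1, R 4.3.3) with group means took in all 12 arrays. It had 8 residual degrees of freedom and a prior of 4.41, and eBayes used an intensity trend. Benjamini-Hochberg adjustment ran over all 8387 genes per comparison. The procedure was run on simulated data with noise drawn independently for each gene and array. These held no stage differences and no deviations shared by the genes of an array, so they do not show how the procedure behaves with such features. Figures were drawn with matplotlib 3.10.9.

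All 9 trypsins are named whatever their values, with the 2 genes most correlated with each and up to 4 genes per list and comparison with the smallest adjusted p, and any gene named otherwise was chosen after its values were seen. The members and lists were chosen with earlier results of these data known. Alternatives were the scaling, the constant, the filter, the probe set rule, the compared arrays alone, a replicate block, array weights, no trend, a 2-fold condition and each array left out.

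Pairing by replicate number was checked through each array's deviations from its group mean. Between the control groups of the stages, arrays of equal number correlated at 0.178, 0.143 and 0.122. On these values the stage comparison on control food was counted as paired. No other pair of groups was counted so. The SE and adjusted p values of the main fit for that comparison take no account of the pairing. The fit with the replicate block is described at the end. The labels number the replicates but state no pairing, and arrays of unlike number reached 0.389 between the wandering groups. The pairing is therefore inferred from weak correlations.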

Additional observations from a re-analysis of the deposited data

Results flagged for a closer look

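The diet effect differed between wandering and mid-L3 larvae in 3 trypsin genes, by the interaction term of the limma fit. alphaTry had a difference of -1.40 on the log2 scale (wandering minus mid-L3, adjusted p = 1.03e-05). epsilonTry had a difference of -0.45 (adjusted p = 0.0471) and lambdaTry one of 1.09 (adjusted p = 0.0384). Over the 24 alternatives the alphaTry difference passed in all, whereas that of epsilonTry lost its call in 15 and that of lambdaTry in 12. Stage and time on the food cannot be told apart in this difference.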

How the results depend on the processing

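Signs of called values were kept under all alternatives except for epsilonTry between the stages on control food, at -0.033 with the values as deposited and -0.331 with arrays centered on their medians. With a 2-fold change as a further condition, 2 trypsins passed in mid-L3 larvae and 0 in wandering larvae, where limma's unadjusted p was under 0.05 for 5. Array weights gave 5 in wandering larvae. The number of trypsins whose diet effects differed was 1 to 3 when each array was left out in turn, and 1 when both control arrays numbered 1 were left out, an alternative chosen after seeing the data. Leaving out arrays gave 4 trypsins throughout for mid-L3 diet, 3 to 4 for wandering diet, 9 throughout for stage on control food and 7 to 8 for stage on high sugar food. For mid-L3 diet, the values as deposited and arrays centered on their medians each gave 3, without betaTry. With the replicate block, the paired fit, all 9 trypsins passed between the stages on control food, also in the control arrays alone (added after seeing the data), and for the other comparisons it changed the call of lambdaTry's diet difference alone. Of all genes called in mid-L3 larvae, 53.6% were higher, against 38.9% with arrays centered on their medians, and between the stages on high sugar food 48.3%, against 58.7% as deposited. In the wandering arrays fitted alone, lambdaTry and kappaTry were under the filter and gave no value. With 3 arrays per group and no detection calls, low values such as those of lambdaTry in wandering larvae are the least certain.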
